A study of Mus musculus with 28 samples.

Results

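The histone genes of sorted mouse male germ cells were described in 28 RNA libraries of wild-type (WT) and Stra8 knockout (KO) testes. All gene symbols in the deposited count tables that begin with Hist1h to Hist4h, H2af, H1f or H3f3 were taken, which gave 91 of 43253 genes, and the 78 with at least 10 reads over the 28 libraries are the members. They were divided by name and annotation into 55 genes of the histone clusters, 10 variant genes, 4 testis-type genes, 1 oocyte-type gene, 7 pseudogenes and 1 antisense gene. Of the 13 genes below 10 reads, 9 were cluster genes, 3 were testis-type and 1 was a pseudogene. Just inside the limit were Hist1h2bf and Hist1h2al with 10 reads each and Hist1h2bn with 11, and just outside it Hist1h2bq with 9 and Hist1h2br, Hist1h3f and Hist2h3c2 with 8 each.

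All mice were derived from C57BL/6 x 129s4/SvJae, and the groups differ in genotype at Stra8, a gene that retinoic acid induces in germ cells and that is needed for meiosis. Every mouse, WT or KO, had received WIN 18,446, an inhibitor of retinoic acid synthesis, over 7 days, so that no group is an untreated testis. Mice were collected at once (0 h), or given retinoic acid and left for a time of 12 or 18 h, 48 or 72 h, or 96 or 120 h; cells with the PIWIL2-eGFP reporter were sorted. Each of the 14 groups had 2 libraries, 1 in each of 2 count tables, which are called the first and the second count table; polyA RNA was selected before library preparation. The part of Stra8 that is missing in the knockout and the ages of the mice are not stated in the labels used here. The labels do not say that the 2 libraries of a group come from separate animals, so p-values measure the spread between these libraries, which may be technical.

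Histone genes fall into groups with different RNA biology. The replication-dependent genes, which lie in clusters and have many near-identical copies, are transcribed in S phase, and their mRNAs usually end in a conserved stem-loop bound by SLBP, the stem-loop binding protein, in place of a polyA tail. Variant genes lie alone, mostly have introns and give ordinary polyadenylated mRNAs outside S phase as well. In the testis, further histones are made as germ cells enter and pass through meiosis, and many histones are later replaced by transition proteins and protamines. With polyA selection, a cluster gene is counted mainly through transcripts that carry an A-rich stretch or a tail, so its level here may differ from that of its stem-loop mRNA.

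The stem-loop was sought in the annotated transcripts because it is found in genes whose mRNA can end without a tail. Only annotated transcripts were searched, so a cluster gene in which it was not found need not have an ordinary mRNA. A stem of 6 bases beginning with GG, a loop of 4 bases beginning with TTT and the perfect reverse complement of the stem were required, 16 bases in all. It was found in 38 of the 55 cluster members, in 1 of the 10 variants (H2afx) and in 1 of the 4 testis-type members (Hist1h1t), against 72 of 21923 protein-coding genes (0.328%). These 72 include histone genes, and among protein-coding genes without the histone symbols 27 had it (0.124%). The most common form was in 22 members, and a form with a GC-richer stem was in 7 H4 genes. Examples follow with the stem-loop in capitals and bases of the transcript on each side in lower case. They show the most common form in the cluster gene with the highest level and in an H2B gene that changed over time. Next come the A-containing loop shared by a cluster H3 gene and the testis linker histone, and the form of 7 H4 genes in Hist1h4d. Hist1h4i has another form, which it shares with Hist2h4, and the last is the form of H2afx.
Hist1h2ap: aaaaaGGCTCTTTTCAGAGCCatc
Hist1h2bj: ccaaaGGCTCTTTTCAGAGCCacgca
Hist1h3c: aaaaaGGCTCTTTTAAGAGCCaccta
Hist1h1t: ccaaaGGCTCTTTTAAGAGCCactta
Hist1h4d: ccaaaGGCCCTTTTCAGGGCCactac
Hist1h4i: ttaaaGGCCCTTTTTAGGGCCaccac
H2afx: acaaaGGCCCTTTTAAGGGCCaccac

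In the annotated transcripts of the GRCm38 build (mm10) these 16 bases lie at chr13:21833029-21833044 on the minus strand for Hist1h2ap and at chr13:22043638-22043653 on the plus strand for Hist1h2bj. For Hist1h3c the position was chr13:23745047-23745062 (minus), for Hist1h1t chr13:23696525-23696540 (plus), for Hist1h4d chr13:23581950-23581965 (plus), for Hist1h4i chr13:22040966-22040981 (minus) and for H2afx chr9:44335240-44335255 (plus). The annotated transcripts of Hist1h2ap and Hist1h2bj stop 3 and 23 bases after the stem-loop. Those of Hist1h1t, Hist1h4i, Hist1h4d and H2afx run on for 185, 330, 770 and 822 bases.

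Promoters were compared because most cluster H2A and H2B genes stand back to back and share one short stretch of DNA between their starts. The window of the highest cluster gene, Hist1h2ap (RefSeq H2ac24), runs over chr13:21833426-21833725 on the minus strand of GRCm38.p6, from 250 bases before to 50 after its RefSeq start. Capitals mark the CCAAT box or its reverse complement, which occurred 3 times; Hist1h2br starts 235 bases away in the other direction.
Hist1h2ap promoter: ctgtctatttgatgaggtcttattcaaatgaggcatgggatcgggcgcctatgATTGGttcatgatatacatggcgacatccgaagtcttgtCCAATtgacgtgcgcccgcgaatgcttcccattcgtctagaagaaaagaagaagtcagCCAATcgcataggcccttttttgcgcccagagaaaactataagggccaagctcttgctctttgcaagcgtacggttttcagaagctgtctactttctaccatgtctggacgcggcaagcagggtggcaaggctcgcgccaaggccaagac

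Of the 78 members, 66 had an entry in the RefSeq table and 63 an entry at the annotated start. CCAAT on either strand was in 16 of 16 H2A, 12 of 12 H2B and 7 of 7 H3 cluster windows but in 3 of 12 H4 windows. It was also in 5 of 7 variant windows (71.4%), against 37.4% of all 32851 windows of the same length. TATAAA was in 31 of 50 cluster windows (62.0%) and in 0 of 7 variant windows, against 13.6% of all windows. The octamer ATTTGCAT was in 6 of 16 H2A and 5 of 12 H2B cluster windows, against 1.74% of all, and in 0 of the 7 H3 and 12 H4 windows. Windows of back-to-back genes overlap, so 1 site can be counted for H2A and again for H2B. Hist1h2ae with Hist1h2bg and Hist1h2ah with Hist1h2bk are such pairs with the octamer in both windows, and the H2A and H2B counts are not independent. The 3 motifs were sought on both strands, none contains another though their ends can share letters, and a match is a description of the letters only.

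Depth differed between the libraries, and 10 of them stood apart in the histone genes. WT libraries held 5752475 to 10135820 counts and 11 of the KO libraries 3340355 to 9507928, whereas 3 KO libraries of the second table, those of 72, 96 and 120 h, held 913055 to 1078460. In these 3 shallow KO libraries a count of 0 allows up to 2.78 to 3.29 CPM (counts divided by the library total and multiplied by 1e6; 3 counts, counting error only). The first-table WT libraries, 7 in all, had lower shares of mitochondrial reads, 1.98 to 3.06%, than the 7 of the second table, 3.21 to 6.79%, and the other 11 KO libraries, 4.56 to 8.56%. Stra8, the targeted gene, had 713 and 1043 CPM after 12 h and 746 and 836 CPM after 18 h in WT, against 30.7, 25.9, 16.3 and 21.5 CPM in the KO libraries of those times. In the KO libraries at the other times it was at 0 to 5.48 CPM, except for 62.2 CPM in the library of the first table at 48 h. Summed markers of germ cells (Ddx4, Dazl, Piwil2, Mael and Tdrd1) were at 2374 to 4977 CPM in all libraries. Prm1, Prm2 and Tnp2 of spermatids and Insl3 and Lhcgr of Leydig cells were at 0 in 20 or more libraries, but other markers of these lists had reads. The 6 spermatid markers summed to 0.868 to 3.55 CPM in WT and 0.971 to 3.52 CPM in KO. The 6 Leydig markers summed to 4.93 to 9.18 CPM in WT and 4.79 to 15.8 CPM in KO.

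Variant genes held most of the histone reads. Of all member reads, 93.0% (162370 reads) came from the 10 variants, 4.77% (8333 reads) from the 55 cluster genes, 1.56% from the pseudogenes and 0.121% (211 reads) from the testis types. Per kilobase of exon, the median of the mean level over 28 libraries was 20.6 CPM for variants and 0.592 CPM for cluster genes. H2afv, which encodes an H2A.Z protein, had the highest level per kilobase at 109 CPM. It was followed by H3f3b, which with H3f3a encodes the replacement histone H3.3, at 93.9 CPM and the other H2A.Z gene, H2afz, at 44.7 CPM. Of the stretches of 50 bases in H2afz, 69.6% are shared with other genes, against at most 16.4% in the other variants. The values of H2afz are therefore less certain. H2afy2 and H2afy, the genes of the macroH2A histones, which carry a large extra domain and are known from repressed chromatin, were level at 21.7 and 21.6 CPM per kilobase. H1fx, H3f3a, H1f0 and H2afx followed at 19.6, 18.4, 16.5 and 13.9, and H2afj was lowest among variants at 4.26 CPM per kilobase. In bulk samples, fewer cells of a type and less RNA per cell cannot be told apart.

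**Figure D1:**
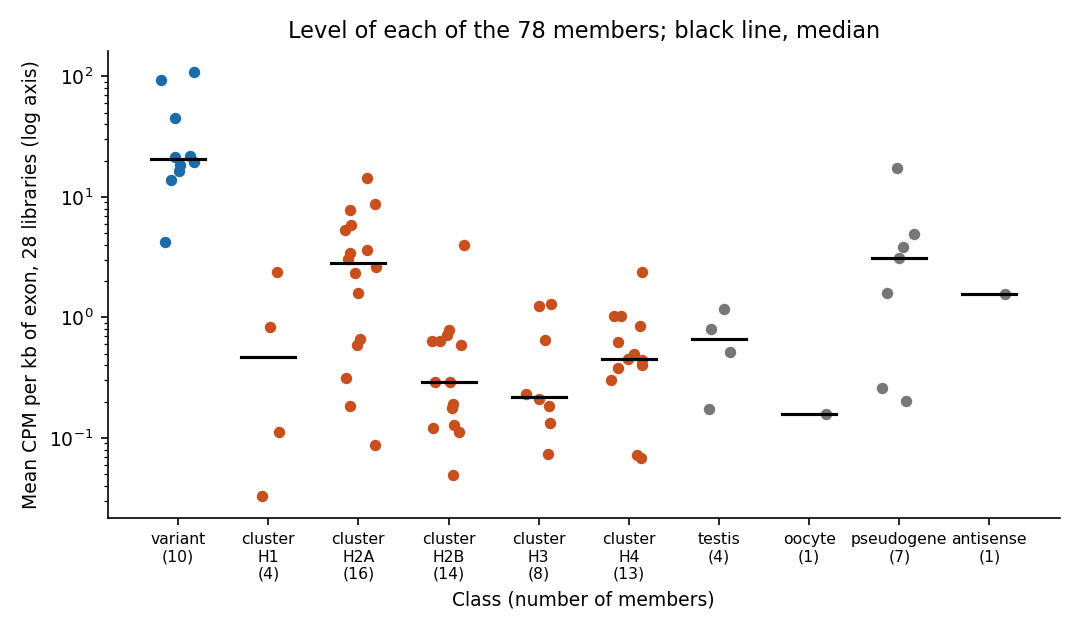
Mean level over the 28 libraries of each of the 78 members, in CPM per kilobase of exon on a log axis, by class, with the number of members in brackets and the class median as a black line. The 10 variants have a median of 20.6, and among cluster genes the 16 H2A genes have the highest median, 2.85.

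Cluster genes were low but not equal. The 16 H2A genes held 5174 of the 8333 cluster reads, against 1063 for 13 H4 genes, 971 for 14 H2B genes, 679 for 4 H1 genes and 446 for 8 H3 genes. Median levels per kilobase were 2.85 CPM for H2A, 0.472 for H1, 0.450 for H4, 0.289 for H2B and 0.221 for H3. The highest cluster genes were all H2A: Hist1h2ap at 14.2 CPM per kilobase, Hist1h2ao at 8.76, Hist1h2ai at 7.76, Hist1h2ab at 5.84 and Hist1h2ad at 5.26. These genes share most of their sequence with other genes, 93.1%, 93.5%, 90.1%, 58.0% and 67.1% of their stretches of 50 bases, so reads among such copies cannot be assigned with certainty and the values of single H2A genes are uncertain.

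Levels were also set beside the annotated ends. The 17 cluster members whose transcript runs more than 100 bases past the stem-loop had a median of 0.230 CPM per kilobase, the 21 that end within 100 bases had 0.711, and the 17 with no stem-loop annotated had 0.592. The hexamer AATAAA, the usual polyadenylation signal, was in the last 40 bases of 11 cluster transcripts, whose median was 0.177 CPM per kilobase, against 0.643 for the other 44. Longer transcripts share fewer 50-base stretches with other genes (median 11.6% against 59.4% for those ending at the stem-loop), and the part of that difference, and of the H2A genes among the shorter ones, was not tested.

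Within the back-to-back pairs, reads fell mostly on the H2A side. In 11 pairs of cluster genes with starts less than 1000 bases apart, the H2A gene had more reads in 9, with 4368 reads in all against 657 for the H2B genes and a median ratio of 11.7. The extremes were Hist1h2ap with 1191 reads beside Hist1h2br with 8, a ratio of 149, and Hist2h2ac with 20 beside Hist2h2be with 79, a ratio of 0.253. Hist1h2bj, with 358 reads beside 295 for Hist1h2ag, held more reads than all other H2B genes of these pairs together. Each pair shares one intergenic stretch such as the one printed for Hist1h2ap, so these neighbours differ in reads while sharing that stretch. In the annotation, 13 of the 16 cluster H2A members and 0 of the H2B, H3, H4 and H1 cluster members hold a predicted miRNA gene on the opposite strand inside their exons, covering 5.56 to 35.9% of them. Whether counting used strand is not stated in the labels, none of those predicted genes is in the count tables, and reads of the 2 strands cannot be told apart.

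**Figure D2:**
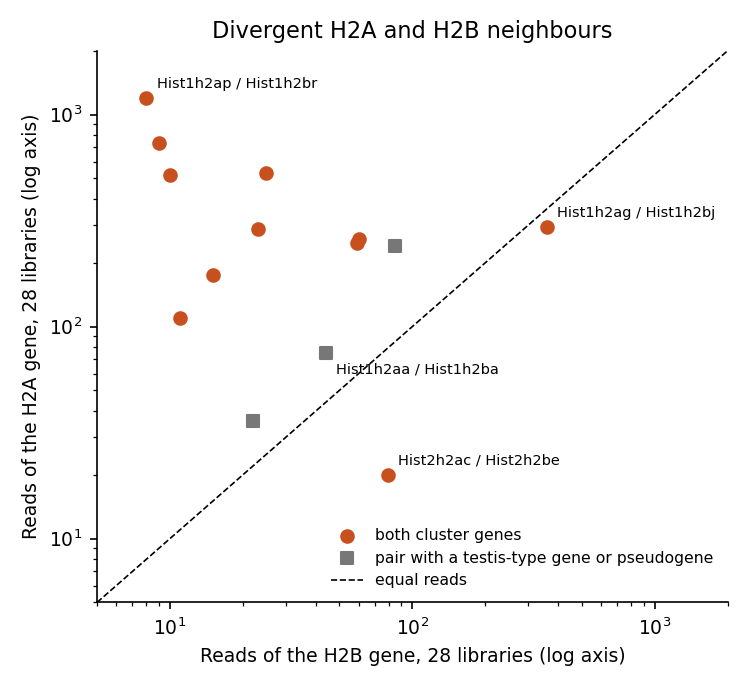
Reads over 28 libraries of the H2A gene (vertical) and the H2B gene (horizontal) of each back-to-back pair, both on log axes; the dashed line marks equal reads. Of the 11 pairs of cluster genes, 9 lie above the line, from Hist1h2ap with 1191 reads against 8 down to Hist2h2ac with 20 against 79 below it.

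The H2A cluster genes also separated the libraries that stood apart. In WT the summed level of the 16 genes, in the first and then the second count table, was 2.06 and 11.6 CPM at 0 h, 3.55 and 23.2 after 12 h, 5.87 and 50.7 after 18 h, 1.24 and 74.1 after 48 h, 7.32 and 24.9 after 72 h, 4.02 and 60.8 after 96 h and 10.3 and 26.8 after 120 h. The KO values were 12.4 and 19.6 CPM at 0 h, 54.3 and 49.9 after 12 h, 47.3 and 41.2 after 18 h, 69.5 and 77.8 after 48 h, 68.9 and 4.64 after 72 h, 35.2 and 0 after 96 h and 46.0 and 1.94 after 120 h. First-table WT libraries and the shallow KO libraries were thus all below all others, and the WT libraries of the second table (11.6 to 74.1 CPM, median 26.8) overlapped the other 11 KO libraries (12.4 to 77.8 CPM, median 47.3). The separation was found in each H2A gene with enough reads: among 13 cluster H2A genes with at least 20 reads in WT, the mean CPM of the second table was 4.38 to 14.2 times that of the first, Hist1h2ap having the highest ratio and Hist1h2ak the lowest. Hist1h2ac, of which only 11.6% of the 50-base stretches are shared, had a ratio of 8.23.

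The other cluster families had lower median ratios, with wide ranges. The ratio of the second to the first table in WT had a median of 1.20 over 10 H2B genes (0.636 to 3.63) and 0.847 over 5 H3 genes (0.254 to 2.00). It was 0.736 over 12 H4 genes (0.124 to 2.41) and 0.763 over 4 H1 genes (0.0894 to 1.35). The shared stretches of H3 genes (median 57.2%) were between those of H2A (73.0%) and H2B genes (44.5%). Among variants the ratio was 1.94 for H2afj, 1.74 for H2afx, 1.60 for H2afv and 1.56 for H2afz, and 0.847 to 1.26 for the other 6. Whether animals, RNA or mapping differed between these libraries was not tested. The 10 libraries were singled out partly by these H2A sums. A fit without them has 1 library at each WT time, so its spread comes from the KO groups of 0, 12, 18 and 48 h and WT is assumed to vary like them.

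**Figure D3:**
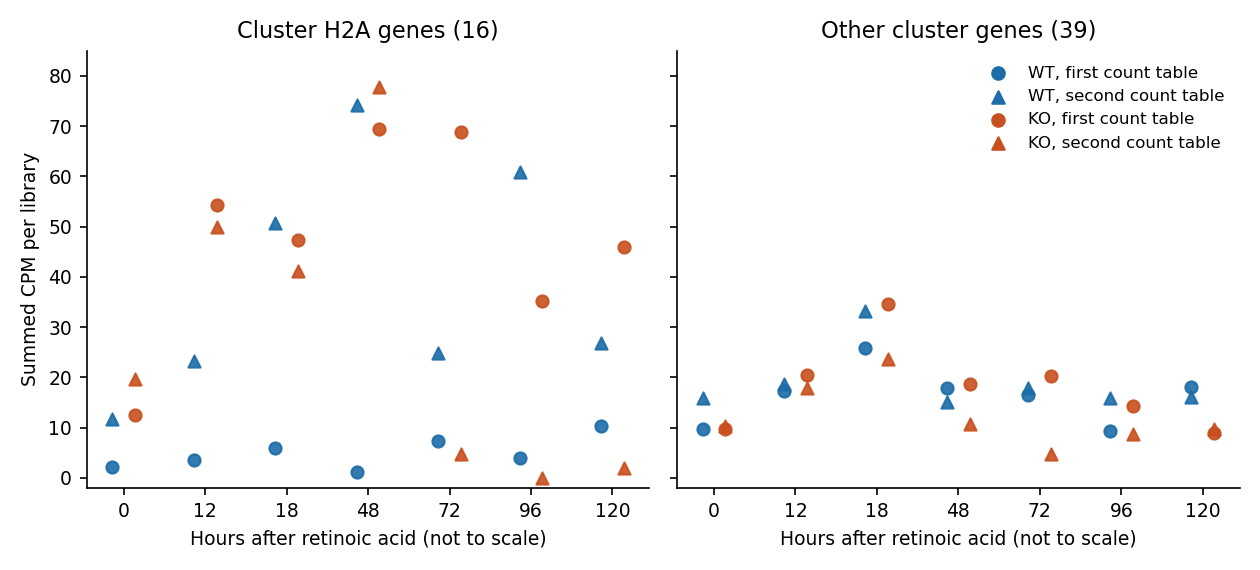
Summed CPM per library of the 16 cluster H2A genes (left) and of the other 39 cluster genes (right) against hours after retinoic acid, with WT in blue, KO in orange, circles for the first and triangles for the second count table. On the left the WT circles stay at or below 10.3 and the last 3 KO triangles at or below 4.64, while on the right the sums are highest at 18 h in each of the 4 series of libraries.

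Outside H2A, the cluster genes had their highest sum at 18 h. In WT the 39 genes summed to 9.72 and 15.9 CPM at 0 h, 17.4 and 18.6 after 12 h, 25.8 and 33.1 after 18 h, 17.9 and 15.2 after 48 h, 16.6 and 17.8 after 72 h, 9.30 and 15.8 after 96 h and 18.0 and 16.1 after 120 h. In KO they summed to 9.78 and 10.3 CPM at 0 h, 20.5 and 17.9 after 12 h, 34.7 and 23.7 after 18 h, 18.6 and 10.8 after 48 h, 20.2 and 4.64 after 72 h, 14.3 and 8.76 after 96 h and 8.97 and 9.71 after 120 h. For this pooled sum the 18 h library was the highest in each of the 4 series (genotype and table). Of all 17519 tested genes, 0.674% were highest at 18 h in all 4 series. By family, the H1 sum was highest at 120 h in both WT series, and the H4 sum at 120 h in WT of the first table. The H2B and H3 sums were highest at 12 h in KO of the second table. In their other series these families were highest at 18 h. Sums are given without a test.

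Single cluster genes rarely passed the test over all 28 libraries. The test was edgeR's quasi-likelihood test over all 28 libraries with Benjamini-Hochberg adjustment over all 17519 genes with enough reads and a threshold of 0.05, and 36 of the 78 members could be tested: 20 cluster genes, the 10 variants, 5 pseudogenes and the antisense gene. Any change over time in WT was found for 6 of 36 (16.7%) beside 37.3% of all genes, and in KO for 4 of 36 (11.1%) beside 15.8% of all genes. The share of members was below the background in both. In this fit Hist1h2bj was the 1 cluster gene of 20 called for any change over time, in both genotypes. With no expression filter edgeR called 12 of 55 cluster genes in WT, 9 of them H2A, and 7 of 55 in KO. The share over all genes is not given for the fit with no filter. A fit without the 10 libraries that stood apart has a single library at each WT time. It also leaves out libraries singled out partly by their H2A sums, so its calls are not given here.

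Hist1h2bj, an H2B gene in the large cluster on chromosome 13 (chr13:22043214-22043676), was highest at 18 h in WT and at 12 and 18 h in KO. Its level in WT was 0.572 and 1.64 CPM at 0 h, 0.987 and 2.30 after 12 h, 4.18 and 8.10 after 18 h, 0.621 and 1.33 after 48 h, 0.721 and 1.09 after 72 h, 0.459 and 1.04 after 96 h and 0.378 and 0.747 after 120 h. Levels in KO were 1.16 and 0.490 CPM at 0 h, 4.09 and 4.96 after 12 h, 7.54 and 3.95 after 18 h, 1.04 and 0.299 after 48 h, 1.51 and 0 after 72 h, 1.47 and 0 after 96 h and 1.33 and 0 after 120 h. Both WT libraries of 18 h lay above all other WT libraries, and the 4 KO libraries of 12 and 18 h above all other KO libraries, although the 3 values of 0 come from the shallow libraries and allow up to 3.29 CPM. The change over time had an adjusted p (edgeR) of 0.00317 in WT and 0.0159 in KO. Without the second-table WT library at 18 h the adjusted p rose to 0.126, and without the first-table KO library at 18 h to 0.101.

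In the fit over all 28 libraries, other cluster genes passed between 0 and 120 h in WT alone. Hist1h1a, a linker histone gene that holds no stem-loop by the form sought, was at 1.26 and 0.983 CPM at 0 h and at 2.40 and 5.11 CPM at 120 h in WT, a log2 fold change of 1.78 ± 0.60 (SE, n = 2 against 2; edgeR adjusted p = 0.0288). It lost the call without either 0 h library or without the second-table library at 120 h. Hist1h3c was at 0 and 1.64 CPM at 0 h and at 0 in both WT libraries at 120 h, so its call (edgeR adjusted p = 0.049) rests on a single library. Hist1h3a, next in order of p for change over time, reached edgeR adjusted p-values of 0.0614 in WT and 0.0858 in KO.

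The macroH2A genes changed over time in both genotypes and were highest at 0 h. H2afy2 (chr10:61738665-61784147, minus strand) was at 101 and 83.9 CPM at 0 h in WT, 26.7 and 20.3 after 12 h, 19.4 and 19.8 after 18 h, 31.7 and 26.1 after 48 h, 40.2 and 35.5 after 72 h, 34.8 and 36.3 after 96 h and 32.7 and 21.2 after 120 h. In KO the values were 93.2 and 97.2 CPM at 0 h, 67.7 and 68.9 after 12 h, 46.2 and 45.6 after 18 h, 44.4 and 43.7 after 48 h, 52.3 and 34.3 after 72 h, 58.3 and 44.9 after 96 h and 57.1 and 35.9 after 120 h. The genotypes overlapped at 0 and 72 h and KO was higher without overlap at the other 5 times; 8.88% of all tested genes were higher in KO without overlap at 5 or more times and 8.83% lower.

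By 12 h, H2afy2 had fallen by 1.96 ± 0.24 on the log2 scale in WT (SE, n = 2 against 2; edgeR adjusted p = 8.33e-06), the only member called among 36 (2.78%) beside 10.9% of all genes, 5.53% being lower. In KO the change by 12 h was -0.45 ± 0.23 with an edgeR adjusted p of 0.268. By 120 h the changes were -1.73 ± 0.24 in WT (edgeR adjusted p = 1.78e-05) and -0.98 ± 0.24 in KO (edgeR adjusted p = 0.0517). Change over time passed in both genotypes, with edgeR adjusted p-values of 1.07e-06 in WT and 0.00719 in KO, the latter rising to 0.0605 without the first-table library of 0 h.

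The difference between the courses was tested as the interaction of genotype and time, for which edgeR called 0 of 36 members beside 0.108% of all genes. Unadjusted p was below 0.05 for 2 members, H2afy2 and H2afy, and H2afy2 had an adjusted p of 0.146 by edgeR. DESeq2 called 1 member, H2afy2, with an adjusted p of 0.0057. The same gene passed with the recovered reads of 3 KO columns (edgeR adjusted p = 0.0464) and without the 10 libraries that stood apart (edgeR adjusted p = 0.0376), and over the alternatives run its adjusted p ranged from 0.0057 to 0.148.

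H2afy (chr13:56073619-56136361, minus strand) was at 236 and 187 CPM at 0 h in WT, 147 and 149.6 after 12 h, 124 and 113 after 18 h, 84.9 and 67.8 after 48 h, 79.7 and 70.6 after 72 h, 59.6 and 68.3 after 96 h and 92.6 and 57.2 after 120 h. KO libraries had 294 and 245 CPM at 0 h, 201 and 211 after 12 h, 148 and 188 after 18 h, 151 and 163 after 48 h, 161 and 144 after 72 h, 152 and 157 after 96 h and 215 and 152 after 120 h. KO was above WT without overlap at all 7 times, as for 1.60% of all tested genes, while 0.782% were lower in KO at all 7. In WT it fell by 1.45 ± 0.21 on the log2 scale between 0 and 120 h (SE, n = 2 against 2; edgeR adjusted p = 2.63e-05). In KO the change was -0.55 ± 0.21 with an edgeR adjusted p of 0.276. Change over time passed in both genotypes (edgeR adjusted p = 2.32e-06 in WT and 0.0333 in KO). The KO call was lost without any 1 of 6 KO libraries and without the 3 shallow ones (adjusted p = 0.0708).

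**Figure D4:**
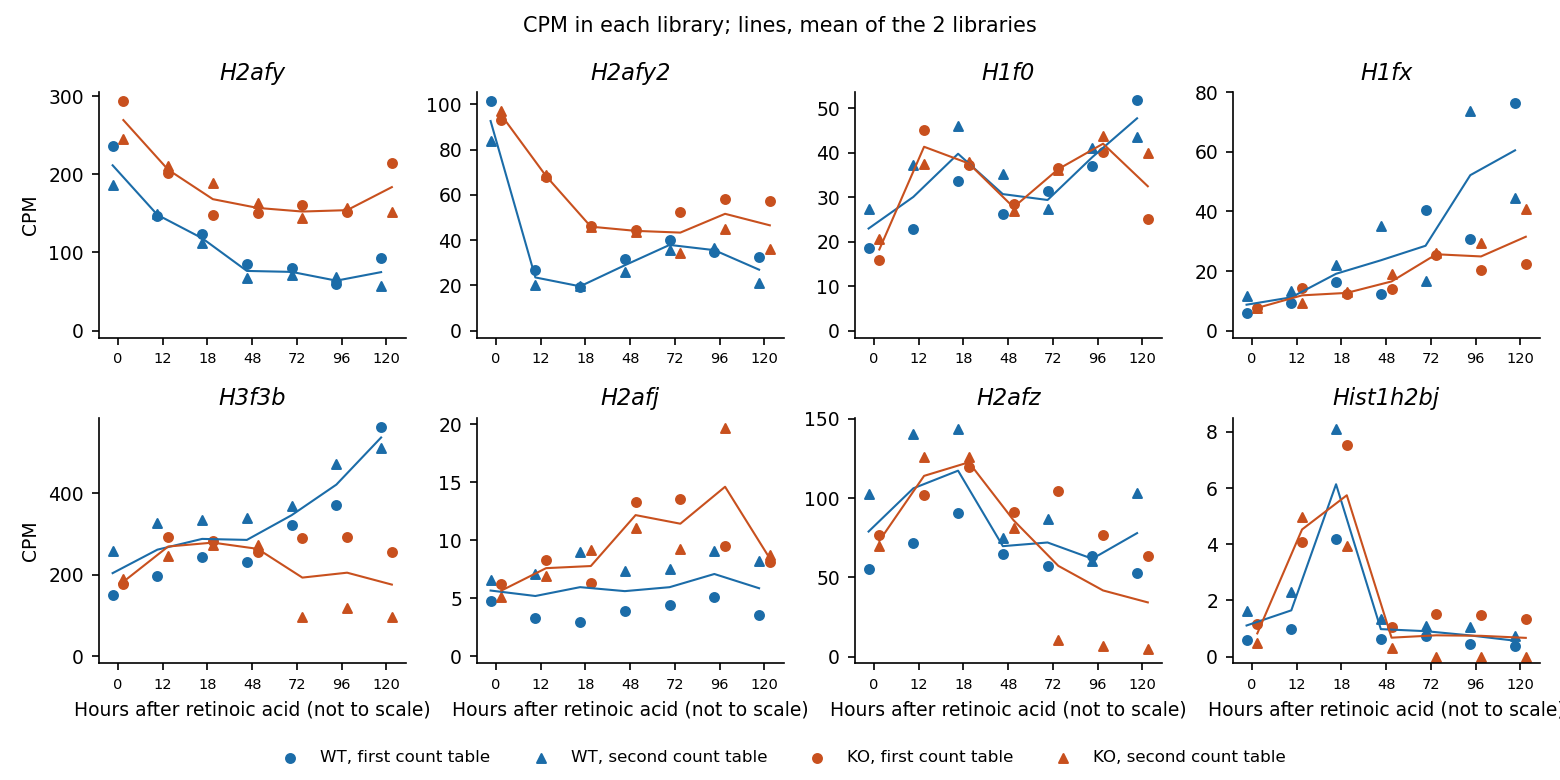
CPM of 8 members in each library against hours after retinoic acid, with WT in blue, KO in orange, circles for the first and triangles for the second count table; lines join the means of the 2 libraries. H2afy in KO lies above WT at all 7 times, H2afy2 falls from 101 and 83.9 to 26.7 and 20.3 by 12 h in WT, and Hist1h2bj is highest at 18 h in WT.

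Of the linker histone variants, H1f0 changed over time in both genotypes and H1fx rose between 0 and 120 h in WT. H1f0 encodes a linker histone known from cells that differentiate or leave the cycle. It was at 18.5 and 27.4 CPM at 0 h in WT, 22.8 and 37.3 after 12 h, 33.6 and 45.9 after 18 h, 26.1 and 35.3 after 48 h, 31.5 and 27.2 after 72 h, 37.0 and 41.0 after 96 h and 51.8 and 43.6 after 120 h. The KO values were 15.9 and 20.6 CPM at 0 h, 45.2 and 37.5 after 12 h, 37.2 and 37.9 after 18 h, 28.5 and 26.9 after 48 h, 36.4 and 36.2 after 72 h, 40.2 and 43.8 after 96 h and 25.1 and 39.8 after 120 h. At 0 h both KO libraries were below all other KO libraries, while the WT libraries of 0 h overlapped those of 12, 48 and 72 h.

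In KO, H1f0 rose by 12 h with a log2 fold change of 1.23 ± 0.26 (SE, n = 2 against 2; edgeR adjusted p = 0.00411) and was the only member called among 36 (2.78%) beside 8.57% of all genes, 4.13% being higher and 4.44% lower. In WT the change by 12 h was 0.39 ± 0.25 (edgeR adjusted p = 0.401), and the difference between genotypes is covered by the interaction (edgeR adjusted p = 0.56). By 120 h it had risen in WT by 1.11 ± 0.25 (edgeR adjusted p = 0.0021). Change over time passed in WT (edgeR adjusted p = 0.0207) and KO (edgeR adjusted p = 0.0196), the former not without the 10 libraries that stood apart (adjusted p = 0.0849). The KO call at 12 h was lost without the first-table library of 0 or of 12 h, and the WT call at 120 h without the first-table library of 0 h.

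H1fx, a linker histone gene of the replication-independent kind, was at 5.95 and 11.5 CPM at 0 h in WT, 9.18 and 13.2 after 12 h, 16.2 and 22.0 after 18 h, 12.2 and 35.0 after 48 h, 40.5 and 16.5 after 72 h, 30.6 and 73.7 after 96 h and 76.5 and 44.5 after 120 h. Levels in KO were 7.68 and 7.59 CPM at 0 h, 14.3 and 9.37 after 12 h, 12.4 and 12.9 after 18 h, 13.9 and 19.2 after 48 h, 25.3 and 26.0 after 72 h, 20.2 and 29.6 after 96 h and 22.2 and 40.8 after 120 h. The 2 WT libraries of 48, 72 and 96 h lay far apart, and neither table was the higher at all 3 times. Between 0 and 120 h it rose in WT by 2.85 ± 0.53 on the log2 scale (SE, n = 2 against 2; edgeR adjusted p = 0.000549), the largest rise among the called members, and the change in KO was 1.94 ± 0.56 (edgeR adjusted p = 0.131).

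Between 0 and 120 h in WT, 6 of 36 members were called (16.7%) beside 28.9% of all genes: H1fx, H1f0 and Hist1h1a rose and H2afy, H2afy2 and Hist1h3c fell, beside 14.2% of all genes that rose and 14.7% that fell. All 3 that rose are linker histone genes; they were counted after their values were seen. In KO over the same interval edgeR called 0 of 36 members beside 0.953% of all genes (0.0457% lower), with 5 members at an unadjusted p below 0.05, and DESeq2 called 2. The KO group at 120 h contains 1 of the shallow libraries.

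The antisense gene H3f3aos changed over time in WT (edgeR adjusted p = 0.00809), with 12.4 and 8.03 CPM after 72 h and 11.1 and 8.69 after 96 h and its lowest WT value, 1.38 CPM, after 12 h. The other variants, H2afz, H2afv, H2afx, H2afj, H3f3a and H3f3b, gave no call over time in either genotype. H2afz, which encodes an H2A.Z protein, was at 52.8 to 144 CPM in WT and at 4.85 to 126 CPM in KO, its lowest 3 values being those of the shallow libraries. H2afv was at 111 to 260.2 CPM in WT and 173 to 232 CPM in KO, and H2afx, whose product marks DNA breaks and the sex chromosomes in meiosis, at 9.63 to 27.0 CPM in WT and 16.4 to 31.1 CPM in KO. H3f3a was at 37.2 to 113 CPM in WT and 12.0 to 86.5 CPM in KO.

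H3f3b (chr11:116021912-116027962, minus strand) was at 149.9 and 258 CPM at 0 h in WT, 196 and 327 after 12 h, 242 and 333 after 18 h, 231 and 339 after 48 h, 323 and 369 after 72 h, 371 and 471 after 96 h and 561 and 511 after 120 h. In KO the values were 176 and 189 CPM at 0 h, 293 and 245 after 12 h, 284 and 274 after 18 h, 255 and 272 after 48 h, 291 and 95.5 after 72 h, 292 and 118 after 96 h and 255 and 97.1 after 120 h. WT was highest at 120 h in both tables, and its log2 fold change against 0 h was 1.44 ± 0.52 (SE, n = 2 against 2) with an edgeR adjusted p of 0.0507. From 72 h on, all 6 WT libraries were above all 6 KO libraries, the shallow ones being lowest.

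KO and WT were then compared over all times, which asks how histone genes differ when Stra8 is missing. Of 36 members, 7 were called for the mean over the 7 times (19.4%) beside 37.5% of all genes; 3 were higher in KO (17.4% of all genes) and 4 lower (20.1% of all genes). H2afy was higher by 0.84 ± 0.08 on the log2 scale (SE, n = 14 against 14 libraries; edgeR adjusted p = 3.58e-08) and H2afy2 by 0.71 ± 0.09 (edgeR adjusted p = 3.04e-06). Without the 10 libraries that stood apart the values were 1.00 for H2afy and 0.94 for H2afy2, and both genes also passed in each count table alone. H2afj, a variant close to the cluster H2A proteins, was at 2.98 to 5.16 CPM in the first-table and 6.55 to 9.04 CPM in the second-table WT libraries, and at 5.14 to 19.7 CPM in KO, so that the genotypes overlapped. It was higher in KO by 0.63 ± 0.20 (edgeR adjusted p = 0.0142); without the 10 libraries the value was 0.20 and the adjusted p 0.304.

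Lower in KO were the H3.3 gene H3f3b, by -0.54 ± 0.20 (edgeR adjusted p = 0.0418), and H1fx, by -0.51 ± 0.20 (edgeR adjusted p = 0.0486). The processed pseudogene H3f3c was at -0.69 ± 0.27 (edgeR adjusted p = 0.0487), and 73.8% of its 50-base stretches are shared with other genes, H3f3a foremost. H3f3aos, a transcript that overlaps the start of H3f3a on the opposite strand in 5.26% of its exons, was at -0.91 ± 0.22 (edgeR adjusted p = 0.0021). Without the 10 libraries, H3f3b (-0.50, adjusted p = 4.2e-05) and H1fx (-0.70, adjusted p = 0.00018) were called while H3f3c (-0.23, adjusted p = 0.303) and H3f3aos (-0.54, adjusted p = 0.0717) were not. H3f3b was at -0.05 in the first count table alone (adjusted p = 0.845) and at -1.07 in the second (adjusted p = 0.107), the table that holds the shallow libraries. Without the 3 shallow libraries it was at -0.30 (adjusted p = 0.0357). Leaving out single libraries ended the call of H3f3b in 23 of 28 cases, of H1fx in 20, of H3f3c in 17 and of H2afj in 1.

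Markers of Sertoli cells moved with genotype too. Summed over 9 genes (Sox9, Amh and others), they were at 30.1 to 227 CPM in WT (median 70.4) and at 48.7 to 847 CPM in KO (median 147), and the 6 peritubular and stromal markers at 64.8 to 354 CPM (median 120) and 127 to 479 CPM (median 248). No marker of these 2 lists was at 0 in 20 or more libraries. Spermatocyte markers were at 44.4 to 195 CPM in WT (median 86.8) and 50.5 to 85.4 CPM in KO (median 63.4). Their part in the differences of H2afy, H2afy2, H2afj, H3f3b and H1fx was not tested.

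**Figure D5:**
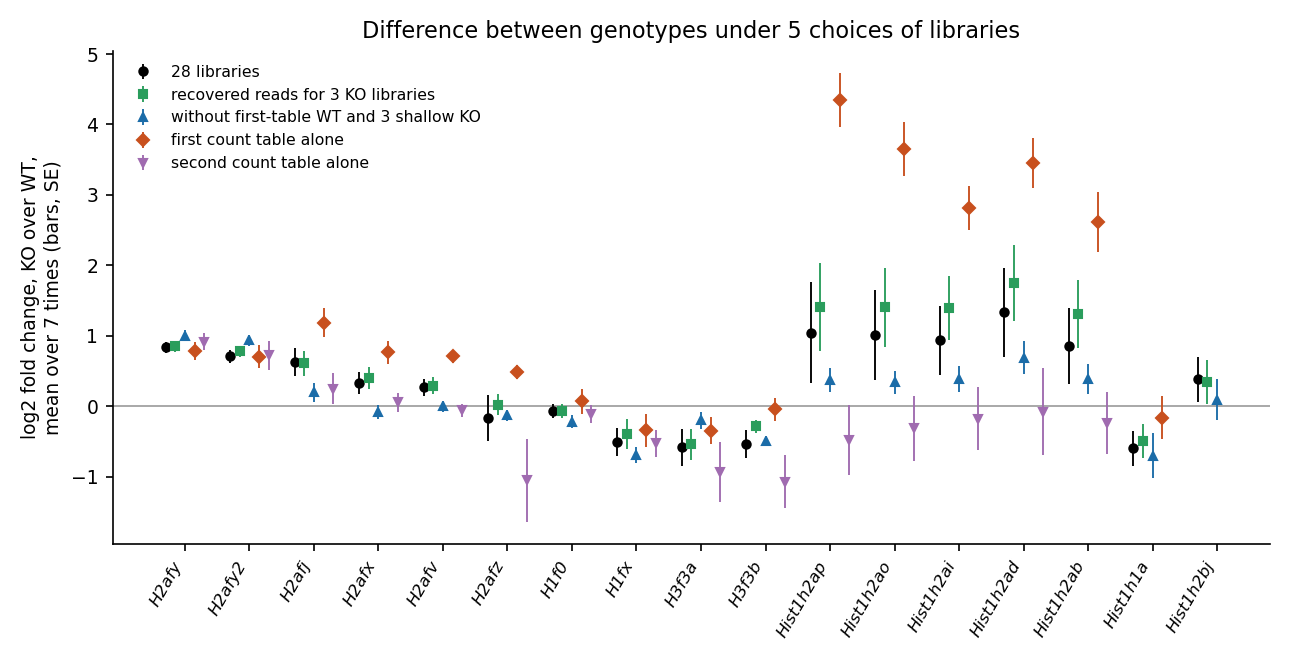
Log2 fold change of KO over WT, mean over 7 times, with SE, for the 10 variants, the 5 cluster genes with the highest level, Hist1h1a and Hist1h2bj, fitted on 5 choices of libraries; a point is missing where the gene had too few reads. H2afy and H2afy2 are above 0 under each choice, while Hist1h2ap moves from 4.35 in the first count table to -0.48 in the second.

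For cluster genes the count of calls in this comparison differed between fits. Over all 28 libraries edgeR called 0 of 20 beside 37.5% of all genes, with 4 at an unadjusted p below 0.05, and DESeq2 called 1 of 35. edgeR called 8 of 21 with the recovered reads, 14 of 55 with no expression filter and 2 of 28 without the 3 shallow libraries. The 37.5% belongs to the edgeR fit over all 28 libraries. Counts of the other fits stand without a share of all genes and are not read as a result about histones. The smallest p-values belonged to Hist1h2ah (1.79 ± 0.69, edgeR adjusted p = 0.0509), Hist1h1a (-0.60 ± 0.25, edgeR adjusted p = 0.0656) and Hist1h2af. The 12 H2A genes tested were all at values above 0, from 0.77 to 1.79 with a median of 1.01, beside a median of -0.02 over all genes. In the first count table alone the 5 H2A genes tested were at 2.61 to 4.35. Such genes entered this fit mainly through KO, where they are high, so only values are given. Hist1h2ap, for example, had 1 to 11 reads in the WT libraries of that table and 19 to 149 in the KO libraries. In the second table alone, which holds the 3 shallow libraries, the 6 tested were at -0.48 to -0.08 with no call and a smallest adjusted p of 0.545. In that table the summed H2A level was higher in KO than in WT at 0, 12 and 48 h and lower at 18 h and at the 3 times of the shallow libraries. The median was 1.41 with the recovered reads (8 of 13 called) and 1.19 without the 3 shallow libraries (1 of 13 called). Without the 10 libraries 13 H2A genes were at 0.15 to 1.32, given as values only.

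At 12 and 18 h, around the time of the highest Stra8 level in WT, 2 of 36 members differed (5.56%) beside 10.5% of all genes. Both were macroH2A genes and higher in KO, as were 6.11% of all genes. H2afy2 differed by 1.41 ± 0.17 (SE, n = 4 against 4 libraries; edgeR adjusted p = 7.73e-06) and H2afy by 0.52 ± 0.14 (edgeR adjusted p = 0.0217). Leaving out single libraries did not end the call of H2afy2 in any of 8 cases and ended that of H2afy in 6.

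At 72, 96 and 120 h, 6 of 36 members differed (16.7%) beside 31.5% of all genes. H2afy was higher in KO by 1.14 ± 0.12 (SE, n = 6 against 6 libraries; edgeR adjusted p = 6.48e-07) and H2afy2 by 0.50 ± 0.14 (edgeR adjusted p = 0.00953), the latter not called when the first-table KO library of 72, 96 or 120 h was left out. H3f3b was lower by -1.18 ± 0.30 (edgeR adjusted p = 0.00799), or by -0.63 without the 3 shallow libraries (adjusted p = 0.0168), and H3f3aos by -1.32 ± 0.35 (edgeR adjusted p = 0.00545). H1fx (-0.83 ± 0.30, edgeR adjusted p = 0.0421) and Hist1h1a (-1.04 ± 0.39, edgeR adjusted p = 0.0467) were also lower, and lost the call without the 3 shallow libraries, with adjusted p-values of 0.066 and 0.102. Leaving out single libraries ended the call of H1fx in 8 of 12 cases and that of Hist1h1a in 10. With the recovered reads of 3 KO columns in place of the shallow libraries, H3f3b was at 269, 282 and 301 CPM at the 3 times, above the shallow libraries and still below the WT libraries of the same times.

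Testis-type and oocyte-type genes had few reads, and none passed the expression filter. Hist1h2aa and Hist1h2ba, a back-to-back pair for the testis forms of H2A and H2B, had 75 and 44 reads over the 28 libraries, with 0 to 1.22 and 0 to 1.26 CPM in WT and 0 to 2.91 and 0 to 0.378 CPM in KO. The KO maximum of Hist1h2aa comes from the shallow library at 120 h, where 3 counts make 2.91 CPM. Hist1h1t, the linker histone of spermatocytes, had 33 reads in 12 libraries and was at 0 to 0.859 CPM in WT and 0 to 0.670 CPM in KO. H2afb3, a short H2A of late male germ cells, had 59 reads in 19 libraries, and H1foo, the linker histone of oocytes, had 27 reads in 16. With no filter, none of these 5 genes was called between KO and WT over the 7 times, at 12 and 18 h or at 72 to 120 h. The smallest adjusted p (edgeR) was 0.116, for Hist1h2ba at 72 to 120 h, where its unadjusted p was 0.0233 and its log2 fold change -3.26 ± 1.43 (SE, n = 6 against 6 libraries).

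The factors that make and handle histones were described from 4 lists. Of 20 tested S phase genes (Pcna, Mcm3 and others), 14 rose by 12 h in WT with a median log2 fold change of 0.93, and 16 rose in KO with a median of 0.98, beside medians of 0.01 over all genes in both; 5.36% of all genes rose in WT and 4.13% in KO. At 120 h 18 were above 0 h and 1 below in WT (14.2% of all genes higher), while in KO only Rrm2, a subunit of ribonucleotide reductase, passed (0.908% of all genes higher). The gene below 0 h in WT was Pola1, of DNA polymerase alpha. Late KO against WT, 12 of 20 were lower and 0 higher (15.9% of all genes lower), Rrm2 having the largest difference at -1.39 ± 0.17 (edgeR adjusted p = 3e-06).

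Of the genes of histone mRNA expression and processing, 5 of 17 rose by 12 h in WT beside 5.36% of all genes, among them Slbp by 1.02 ± 0.25 (edgeR adjusted p = 0.0093) and the cyclin E gene Ccne1 by 1.57 ± 0.22 (edgeR adjusted p = 4.56e-05); in KO 4 rose beside 4.13%, among them Slbp by 1.19 ± 0.26 (edgeR adjusted p = 0.00444). The median log2 fold change of the 17 by 12 h was 0.22 in WT and 0.28 in KO. Without the 10 libraries that stood apart, with 1 WT library per time, these medians were 0.11 and 0.27. At 72 to 120 h 9 of 17 were lower in KO beside 15.9% of all genes and 2 higher beside 15.5%, with a median of -0.30. Slbp was lower by -0.74 ± 0.15 (edgeR adjusted p = 0.000629), Npat, the factor that activates cluster gene transcription, by -0.53 ± 0.11 (edgeR adjusted p = 0.00104), and Casp8ap2, a partner of Npat, by -0.65 ± 0.13 (edgeR adjusted p = 0.00072). Without the 10 libraries the median of the 17 at 72 to 120 h was -0.38.

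Among 10 chaperones that act in replication, 3 rose in WT and 6 in KO by 12 h, beside 5.36% and 4.13% of all genes. At 72 to 120 h 5 were lower in KO and 1 higher, beside 15.9% and 15.5%. The higher one was Chaf1b, a subunit of chromatin assembly factor 1, at 1.27 ± 0.14 (edgeR adjusted p = 7.48e-07). It was also higher in KO at 12 and 18 h by 1.69 ± 0.16 (edgeR adjusted p = 3.61e-07), while its partner Chaf1a was lower late by -0.53 ± 0.12 (edgeR adjusted p = 0.0021). Among 16 genes for chaperones and exchange of variants, 3 were higher and 3 lower in KO over the 7 times, with a median of -0.07, shares near those of all genes (17.4% higher and 20.1% lower). Anp32e, which removes H2A.Z from chromatin, was higher by 1.02 ± 0.14 (edgeR adjusted p = 1.97e-05), and Ubn2 of the complex that deposits H3.3 was lower by -0.51 ± 0.10 (edgeR adjusted p = 0.000203).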

How the data were processed

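PolyA RNA of 28 libraries was sequenced on an Ion Proton, per the labels' protocols. Bowtie, TopHat, Cufflinks and mm10 were used, per the submitters' processing notes; versions, counting program and strand use are not stated there. Raw counts per gene, as deposited by the authors, stood in 2 tables of 14 libraries, whose columns name the group only, and 2 tables of CPM values, which the design had assumed to be FPKM. Of the deposited CPM columns, 25 could be rebuilt from a count column (tolerance 0.001), for WT from the table of the same number and for KO from the other. The 3 others (KO at 72, 96 and 120 h) equalled none; 100% of their values were whole reads within 0.1 read, with totals of 4479730, 4190649 and 4122222, and are called recovered reads. A test on them called 7374 genes in KO against WT over 7 times, beside 6568 with the counts as deposited.

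Rows with 27 date-like names and the 5 rows of reads outside genes were left out; those rows stood only in the WT columns of the first count table, where 27.1 to 33.1% of reads had no feature and 14.3 to 16.2% were not uniquely aligned. CPM is the count over the library total. Tests used edgeR 4.0.16 (R 4.3.3) on the counts (TMM scaling, default expression filter, 14 group means, robust quasi-likelihood tests, Benjamini-Hochberg adjustment over 17519 genes); DESeq2 1.42.0 was an alternative. The fit was tested on simulated data. Exons, overlaps, stem-loops and 50-base stretches came from GENCODE transcripts for GRCm38, promoters from RefSeq (GRCm38.p6); Python 3.11.15 and pandas 2.3.3 were used.

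Members, classes and gene lists were chosen with earlier results of these data known, and no count over them is independent support. Named were each variant, testis-type and oocyte-type member, the 5 cluster genes with the highest mean CPM, and, per comparison, up to 6 higher and 6 lower called cluster genes (up to 10 by p for changes over time and the interaction) with a mean of at least 5 CPM. Where none passed, as in all 10 comparisons, the 3 cluster genes with the smallest p were eligible. H3f3aos, H3f3c and the paired H2B genes were named after their values were seen, and the antisense class was not foreseen in the design. Alternatives were other scalings, DESeq2, no filter, a replicate block, leaving out libraries, recovered reads, and 4 choices added after the data were seen.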

Additional observations from a re-analysis of the deposited data

Results flagged for a closer look

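Cluster H2A genes had a signal in the deposited CPM columns that equal no count column. In these 3 columns, KO at 72, 96 and 120 h, the 16 genes summed to 84.7, 81.0 and 83.1 CPM. The count columns of the same groups in the second table, the shallow libraries, gave 4.64, 0 and 1.94 CPM, and the other KO libraries of these times gave 68.9, 35.2 and 46.0 CPM. The labels do not say which column belongs to which sample.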

How the results depend on the processing

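Counts of called members are given beside the value in the report. Shares over all genes are not given for the alternatives, so the counts show how calls move and are not results about histones. In KO against WT over 7 times (7) they were 24 without a filter, 17 with a replicate block, 21 with a block within each genotype, 16 with recovered reads, 13 in the first count table alone and 2 in the second. At 12 and 18 h (2) they were 9 without a filter and 19 with the block within genotype. At 72 to 120 h (6) they were 10 without a filter, 22 with the block within genotype and 11 with recovered reads. In these comparisons the block within genotype sets KO against WT at the level of the first count table only. Its counts of 21, 19 and 22 are therefore not for the mean of both tables. The count in the first count table alone includes H2A genes that entered that fit mainly through KO, where they are high. For the interaction (0) they were 1 by DESeq2, 3 without a filter, 1 with a replicate block, 1 with the block within genotype, 1 with recovered reads and 3 without the first-table WT and shallow KO libraries. Change over time in WT (6) gave 20 without a filter and 20 without those 10 libraries, and in KO (4) 15 and 17. For WT at 12 h (1) the block within genotype gave 2; at 120 h (6) no filter gave 10 and leaving out the 10 libraries 11. For KO at 12 h (1) they were 6 without a filter, 2 with the block, 3 with the block within genotype, 2 without the shallow libraries, 3 with KO libraries only and 12 without the 10 libraries. For KO at 120 h (0) they were 1 with DESeq2 size factors, 1 with library totals, 2 by DESeq2, 4 without a filter, 1 with the block, 1 with the block within genotype, 1 with recovered reads, 2 with KO libraries only and 3 without the 10 libraries. The cause of these changes was not tested. Without a filter 34303 genes entered the fit. Without the 10 libraries 1 library was left at each WT time, so the spread came from KO groups. Those 10 were singled out partly by H2A sums, so counts of calls without them are no independent result about H2A genes.

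Leaving out single libraries gave 4 to 16 in KO against WT over 7 times, 1 to 2 at 12 and 18 h, 4 to 7 at 72 to 120 h, 0 to 0 for the interaction, 5 to 8 and 2 to 4 for change over time in WT and KO, 1 to 1 and 4 to 6 for WT at 12 and 120 h, and 0 to 1 and 0 to 1 for KO at 12 and 120 h. The lowest of the first range came without the first-table WT library at 18 or at 72 h and the highest without the second-table WT library at 48 h (16) or 96 h (14). The mean summed level of the variants was 879.8 CPM, and 600.5 CPM without H3f3b.

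Table numbers did not pair the libraries: correlations of deviations from the group means were 0.0885 to 0.694 between WT times, -0.335 to 0.808 between KO times and -0.373 to 0.195 between WT and KO of the same time, so a shared number did not mark pairs across genotypes. Between WT times all 21 correlations were above 0 (median 0.505), so the tables separate the WT libraries. Of the 33 single-gene calls, leaving out single libraries ended 18, the block within genotype, the shallow libraries left out and the 10 left out 5 each, and the block 1. Of the 7 over all times, the first table alone ended 3 and the second 5. Among the calls with a log2 fold change, none took the opposite sign under any alternative. Calls for any change over time have no sign. Hist1h3c, called between 0 and 120 h in WT, reached a log2 fold change of 0 when a single library was left out. Each group mean rests on 2 libraries, and the shallow libraries also departed at high levels (H2afz 4.85 to 10.2 CPM against 63.4 to 104 in the other KO libraries of those times).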
